A study of Mus musculus with 6 samples.

Results

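The amino acid transporter genes of the families *Slc3*, *Slc6*, *Slc7*, *Slc36*, *Slc38* and *Slc43* were compared between IG27 cells and WT cells on 6 mouse expression arrays. Both lines descend from OS3, a glial line made from the brain of newborn C3H mice (C3H/HeN in the study's methods) and immortalized with SV40, so that all samples carry SV40. WT cells (labelled OS3-vector, 3 arrays) hold the empty vector, and IG27 cells (labelled OS3-H3F3A_K27M, 3 arrays) hold a plasmid for histone H3.3 with the K27M change. Cells were grown for 2 days, and RNA came from 3 dishes a group. The mutant cells were grown out as clones under drug selection, and the sources used here do not say how many clones a group holds. A p-value below therefore measures the spread between dishes of a line, and clone and mutation cannot be told apart. Members were taken by gene symbol: 59 genes of the gene table are reported, of which 55 were transporter genes and 4 were genes on the opposite strand of one. A probe was found for 54 transporter genes among 22911 named genes, and 33 of these passed the filter for dim probes and were tested, among 14898 tested genes.

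Amino acids do not cross the plasma membrane without carriers, and each of these families moves an overlapping set of them. The light chains of the *Slc7* family reach the cell surface in a disulfide-linked pair with a heavy chain, *Slc3a2* or *Slc3a1*, and mostly exchange an amino acid inside for another outside, while the cationic branch of *Slc7* works without a heavy chain. The *Slc38* and *Slc36* families carry small neutral amino acids with sodium or protons, some of them at the lysosome, where amino acids are sensed for mTORC1. The *Slc6* family takes up glycine, GABA, taurine, creatine and monoamines with sodium and chloride, and in brain its members end transmitter signals. In glia such carriers supply glutathione synthesis with cystine and clear glycine and GABA.

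Levels are log2 processed signals minus the 75th percentile of the array, so that a level of 0 equals that percentile. They can be compared between arrays for a gene but not between genes. A gene was called when its adjusted p in limma's moderated test, corrected over all tested genes by the Benjamini-Hochberg method, was under 0.05. *H3f3a*, the gene carried by the plasmid, was at -0.26 in IG27 relative to WT cells (limma adjusted p = 0.0237), and whether its probe reads the plasmid's transcript is not given in the sources used here. The lines differed widely, since 70.5% of all tested genes were called. Of the astrocyte and radial glia markers, 7 of 9 were well above background on all arrays of WT cells and 8 of 9 on both fully read arrays of IG27 cells, with a summed level of 268 to 282 times the 75th percentile in WT and 204 to 217 times in IG27. *Gfap*, *Vim* and *Nes* were among them, whereas *Slc1a3* and *Fabp7* were not well above background on any WT array. The oligodendrocyte lineage list summed to 73.8 to 75.9 in WT and 74.8 to 77.4 in IG27 (7 and 8 of 8 markers), the neuron list to 18.5 to 20.8 and 10.9 to 12.02 (3 and 5 of 7), and the microglia list to 14.6 to 15.6 and 13.9 to 14.4 (4 and 5 of 6). The endothelial list summed to 0.168 to 0.187 in WT and 2.60 to 2.66 in IG27 (1 and 2 of 4), and the fibroblast list to 126 to 129 and 64.3 to 69.6 (2 and 3 of 5). Single markers carried some of these sums, since *Kdr* went from -7.97 in WT to 1.31 in IG27, *Tubb3* from 3.78 to 1.15 and *Map2* from -6.25 to 1.78. *Rbfox3*, *Cx3cr1*, *Cdh5*, *Cldn5* and *Lum* were at background in both lines. The part of these shifts in the results below was not tested, and in bulk RNA fewer cells of a type and less RNA per cell cannot be told apart.

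Of the 33 tested transporter genes, 10 were higher in IG27 cells, 12 were lower and 11 were not called. These counts stand beside 30.5% of all tested genes higher and 40.0% lower. The called share of the transporter genes, 66.7%, was near the share over all genes. Their median log2 fold change was -0.09, and that of all tested genes was -0.07. A called change of at least 2-fold was seen for 9 transporter genes, of which 7 rose and 2 fell, beside 11.5% of all tested genes up and 11.7% down by that size. In 24 of the 33 genes the groups did not overlap, a pattern seen in 75.7% of all tested genes. Of the 7 large rises, 4 passed the filter through IG27 cells alone (*Slc7a4*, *Slc7a13*, *Slc7a11* and *Slc38a4*), so that they had to differ. For these 4 genes bounds are given below and no p-values. Among the 27 genes that were well above background in both lines, 6 were higher, 12 were lower and 9 were not called, with a median of -0.11. By at least 2-fold, 3 of these 27 rose and 2 fell. Of all 13539 genes well above background in both lines, 3875 were higher and 5554 lower, with a median of -0.08. By at least 2-fold, 1075 of them rose and 1419 fell. The called share was 66.7% for the transporter genes and 69.6% for all genes under this filter.

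**Figure D1:**
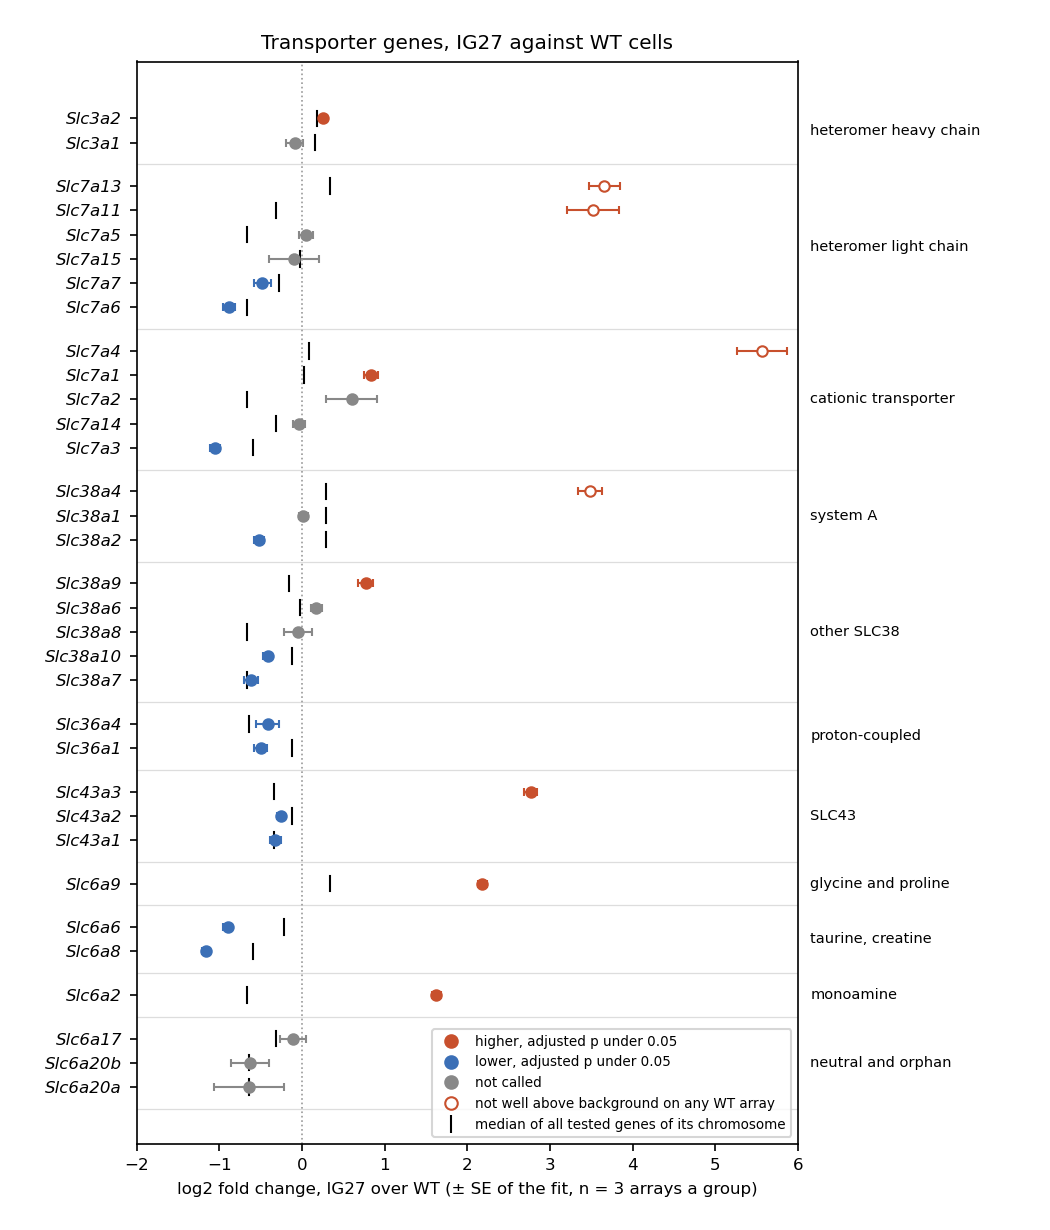
Log2 fold change of IG27 over WT cells for the 33 tested transporter genes, grouped by role, with the standard error of the fit as a horizontal bar. Red points were called higher, blue points lower and grey points were not called, open points had no WT array well above background, and the black tick marks the median of all tested genes of the same chromosome. Filled points run from -1.16 (Slc6a8) to 2.77 (Slc43a3), and the open points are not measured folds.

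The heavy chains changed little. *Slc3a2*, the partner of most light chains in non-epithelial cells, had levels of 4.57, 4.61 and 4.58 on the WT arrays and 4.86, 4.83 and 4.85 on the IG27 arrays. Every IG27 array lay above every WT array by this probe, and the log2 fold change was 0.26 ± 0.04 (SE, n = 3 a group, adjusted p = 0.00186). A dimmer probe, designed on another transcript of *Slc3a2*, went the other way, with 1.19, 1.06 and 1.33 in WT and 0.85, 0.96 and 0.97 in IG27 cells, and gave -0.27 on the log2 scale (adjusted p = 0.0288 in limma's fit over single probes). The direction of *Slc3a2* as a gene is therefore not settled by these arrays. *Slc3a1*, the heavy chain of kidney and gut cystine uptake, measured -5.08, -5.23 and -5.01 in WT and -5.38, -5.02 and -5.18 in IG27 cells. Its groups overlapped, its log2 fold change was -0.09 ± 0.11 (SE, n = 3 a group, limma adjusted p = 0.491), and only 1 of the 2 fully read IG27 arrays was well above background.

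The 6 tested light chains split, with 2 higher, 2 lower and 2 not called. *Slc7a11* (xCT), which brings in cystine in exchange for glutamate, was measured only in IG27 cells. Its levels were -7.05, -7.45 and -8.32 on the WT arrays, all at background, and -3.93, -4.03 and -4.30 on the IG27 arrays. *Slc7a11* was at least 3.22-fold higher in IG27 cells, a difference that its way through the filter required. This bound sets the IG27 mean against the lowest signal that was well above background on each WT array, and holds for the software's own background correction. With normexp correction, which adds an offset of 50 to all signals, the fitted log2 fold change of *Slc7a11* was 0.94. The other *Slc7a11* probe was at background on every fully read array. *Slc7a13* (AGT1), a carrier of aspartate, glutamate and cystine known from kidney, followed the same pattern, with -7.87, -7.61 and -8.12 in WT and -4.46, -4.30 and -3.88 in IG27 cells. It was at least 2.95-fold higher in IG27 cells, and normexp correction gave 0.86 on the log2 scale.

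*Slc7a6* and *Slc7a7* encode the y+L light chains, which exchange cationic for neutral amino acids, and both fell. *Slc7a6* measured 2.28, 2.05 and 2.21 in WT and 1.27, 1.34 and 1.26 in IG27 cells. The groups did not overlap, the log2 fold change was -0.89 ± 0.07 (SE, n = 3 a group, limma adjusted p = 6.97e-05), and a dimmer *Slc7a6* probe gave -0.87. *Slc7a6os*, the protein-coding gene on the opposite strand beside *Slc7a6* and no transporter, measured 1.56, 1.56 and 1.32 in WT and 0.88, 0.82 and 0.72 in IG27 cells, and it fell by 0.68 on the log2 scale (limma adjusted p = 0.000526). *Slc7a7* measured -2.22, -2.36 and -2.25 in WT and -2.75, -2.95 and -2.58 in IG27 cells. Each IG27 array was below each WT array, with a log2 fold change of -0.48 ± 0.10 (SE, n = 3 a group, limma adjusted p = 0.00576).

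*Slc7a5* (LAT1), the main carrier of leucine and other large neutral amino acids in dividing cells, did not pass the test. Its levels were -3.04, -2.95 and -2.93 in WT and -3.06, -2.75 and -2.95 in IG27 cells, so that the groups overlapped, with a log2 fold change of 0.05 ± 0.09 (SE, n = 3 a group, limma adjusted p = 0.628). *Slc7a15*, a light chain gene of rodents, had a value of -0.09 ± 0.30 (SE). The remaining light chains *Slc7a8* (LAT2), *Slc7a10* (Asc-1) and *Slc7a12* were well above background on no fully read array, and *Slc7a9*, the partner of *Slc3a1*, on only 1 WT array, so that none of them was tested.

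**Figure D2:**
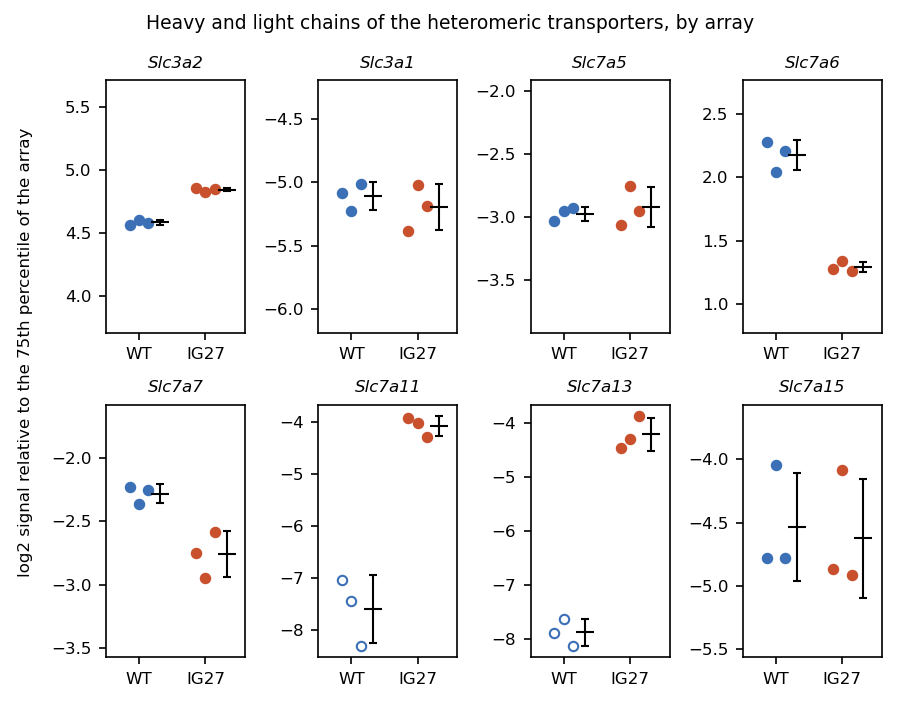
Levels of the tested heavy chains (Slc3a2, Slc3a1) and light chains of the heteromeric transporters on each array, as log2 signal relative to the 75th percentile, with the mean and SD of 3 arrays beside the points. Open points mark a group with no array well above background. For Slc7a11 and Slc7a13 the WT points are at background and the plotted gap is not a measured fold. The groups of Slc3a1, Slc7a5 and Slc7a15 overlap, and those of Slc3a2, Slc7a6 and Slc7a7 do not.

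Of the 5 tested genes of the cationic branch, 2 were higher, 1 was lower and 2 were not called. *Slc7a4*, whose substrate is not well defined, had the largest bound of the 33 transporter genes. It measured -7.86, -6.97 and -8.18 in WT, at background on every array, and -2.08, -2.08 and -2.17 in IG27 cells. It was at least 12.7-fold higher in IG27 cells, a difference that its way through the filter required. With normexp background correction its fitted log2 fold change was 2.00. *Slc7a1* (CAT1), the widely expressed arginine and lysine carrier, measured 3.83, 3.58 and 3.62 in WT and 4.55, 4.54 and 4.45 in IG27 cells. The groups did not overlap, and it rose by 0.84 ± 0.08 on the log2 scale (SE, n = 3 a group, limma adjusted p = 0.00015), or 1.79-fold.

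*Slc7a3* (CAT3), an arginine carrier known mainly from brain, went the opposite way within the same branch. It measured -0.46, -0.33 and -0.35 in WT and -1.48, -1.43 and -1.39 in IG27 cells. Its groups were well apart, with a log2 fold change of -1.05 ± 0.06 (SE, n = 3 a group, limma adjusted p = 1.18e-05). *Slc7a2* (CAT2), the inducible arginine carrier, was spread over -3.44, -3.11 and -3.81 in WT and -3.07, -2.23 and -3.25 in IG27 cells, and its log2 fold change of 0.60 ± 0.31 (SE) did not pass the test (limma adjusted p = 0.126). *Slc7a14*, a lysosomal member, had a value of -0.03 ± 0.08 (SE).

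The 3 sodium-coupled system A genes, which concentrate glutamine, alanine and other small neutral amino acids, behaved differently from each other. *Slc38a4* (SNAT4), best known from liver and placenta, measured -7.59, -7.51 and -7.82 in WT, at background on every array, and -3.96, -4.43 and -4.08 in IG27 cells. It was at least 3.06-fold higher, whereas normexp correction gave 0.55 on the log2 scale. Its other probe was also at background in WT cells alone. *Slc38a2* (SNAT2), which many cells induce when amino acids run short, measured 4.91, 4.81 and 4.89 in WT and 4.25, 4.41 and 4.39 in IG27 cells. All IG27 arrays were below all WT arrays, with a log2 fold change of -0.52 ± 0.06 (SE, n = 3 a group, limma adjusted p = 0.000395).

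*Slc38a1* (SNAT1), the glutamine carrier shared by neurons and many dividing cells, measured 5.17, 5.02 and 5.07 in WT and 5.14, 5.10 and 5.09 in IG27 cells. These groups overlapped, with a log2 fold change of 0.02 ± 0.06 (SE, n = 3 a group, limma adjusted p = 0.780). Its 3 probes disagreed, because a second probe fell by 0.68 on the log2 scale (4.55, 4.19 and 4.26 in WT, 3.70, 3.66 and 3.60 in IG27 cells, limma adjusted p = 0.0013), while the third gave 0.06.

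Among the lysosomal carriers the directions differed. *Slc38a9*, the arginine sensor that signals to mTORC1 from the lysosome, measured -0.43, -0.61 and -0.41 in WT and 0.28, 0.16 and 0.41 in IG27 cells. Its groups did not overlap, and it rose by 0.77 ± 0.09 on the log2 scale (SE, n = 3 a group, limma adjusted p = 0.000335). *Slc36a1* (PAT1), a proton-coupled exporter of small amino acids from the lysosome, measured -0.43, -0.60 and -0.34 in WT and -1.0002, -0.93 and -0.93 in IG27 cells, so that it fell by 0.50 ± 0.08 on the log2 scale (SE, n = 3 a group, limma adjusted p = 0.00133). Its dimmer probe gave 0.04 and was not called. *Slc38a7*, which exports glutamine from lysosomes, was lower as well, at -0.62 ± 0.08 (SE, limma adjusted p = 0.000739).

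Of the other *Slc38* and *Slc36* genes, *Slc38a10* was lower by its brightest probe (-0.41), with a further probe at 0.13 that was not called. *Slc36a4* was called lower (-0.41, limma adjusted p = 0.0365), but its WT array 3, at -2.24, lay close to the IG27 range of -2.41 to -2.29. This call was lost in 10 of 18 alternatives, among them the replicate block, the slide row and the fits without WT replicate 1 or 2 or any 1 of the IG27 replicates (limma adjusted p 0.0546 to 0.109). *Slc38a6* (0.18) and *Slc38a8* (-0.05) were not called. *Slc38a3* was well above background on 2 of 3 WT arrays only, *Slc36a2* on 1, and *Slc38a5*, *Slc38a11* and *Slc36a3* on none, so that these 5 genes were not tested.

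Within the *Slc43* family, *Slc43a3*, a purine nucleobase carrier and not an amino acid carrier, showed the largest rise of the genes measured in both lines. It had levels of -3.31, -3.41 and -3.47 in WT and -0.53, -0.76 and -0.60 in IG27 cells. The groups were far apart, and the log2 fold change was 2.77 ± 0.08 (SE, n = 3 a group, limma adjusted p = 7.75e-07), or 6.81-fold. The facilitative carriers of leucine and other large neutral amino acids were called lower, *Slc43a1* (LAT3) at -0.32 ± 0.06 (SE) and *Slc43a2* (LAT4) at -0.26 ± 0.04 (SE). A nearly as bright probe of *Slc43a1* gave 0.30 and was not called (limma adjusted p = 0.184), so that the direction of *Slc43a1* depends on the probe, and the dimmer probe of *Slc43a2* gave -0.05.

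In the *Slc6* family, 2 of 7 tested genes were higher and 2 were lower. *Slc6a9* (GlyT1), the glycine carrier of glia that lowers glycine around synapses, measured 2.32, 2.44 and 2.38 in WT and 4.59, 4.58 and 4.52 in IG27 cells. The arrays of a group differed by far less than the groups did, and the log2 fold change was 2.18 ± 0.05 (SE, n = 3 a group, limma adjusted p = 4.37e-07), or 4.55-fold. *Slc6a2* (NET), the noradrenaline carrier, measured 0.39, 0.43 and 0.41 in WT and 1.95, 2.09 and 2.06 in IG27 cells. It rose without overlap by 1.62 ± 0.05 on the log2 scale (SE, n = 3 a group, limma adjusted p = 1.55e-06), or 3.08-fold.

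*Slc6a8*, the creatine carrier, measured 5.06, 5.05 and 5.06 in WT and 3.84, 3.91 and 3.94 in IG27 cells. This was the largest fall of the 33 genes, -1.16 ± 0.05 (SE, n = 3 a group, limma adjusted p = 3.66e-06), and a further probe gave -1.40. *Slc6a6*, the taurine carrier, fell by 0.90 on the log2 scale, with levels of 1.66 to 1.76 in WT and 0.74 to 0.85 in IG27 cells, and its other probe fell by 1.08.

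*Slc6a20a* and *Slc6a20b*, neighbouring genes of similar sequence whose probes may not separate them, were not called. *Slc6a20a* was spread by a single WT array, with -3.61, -3.86 and -2.20 in WT and -3.93, -3.86 and -3.80 in IG27 cells. *Slc6a20b* was well above background on the 3 WT arrays and on neither fully read IG27 array, and its value of -0.62 missed the threshold (limma adjusted p = 0.0511). *Slc6a17*, a vesicular neutral amino acid carrier, had a value of -0.11 ± 0.16 (SE). The serotonin carrier *Slc6a4*, the dopamine carrier *Slc6a3*, the GABA carriers *Slc6a11* and *Slc6a13*, and *Slc6a14*, *Slc6a15* and *Slc6a19* were at background on every fully read array. The betaine carrier *Slc6a12*, *Slc6a18*, *Slc6a21*, the glycine carrier of neurons *Slc6a5* and the proline carrier *Slc6a7* were well above background on 1 array each. *Slc36a1os* was at background, and *Slc6a16*, *Slc36a3os* and *Slc6a19os* had no named probe.

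**Figure D3:**
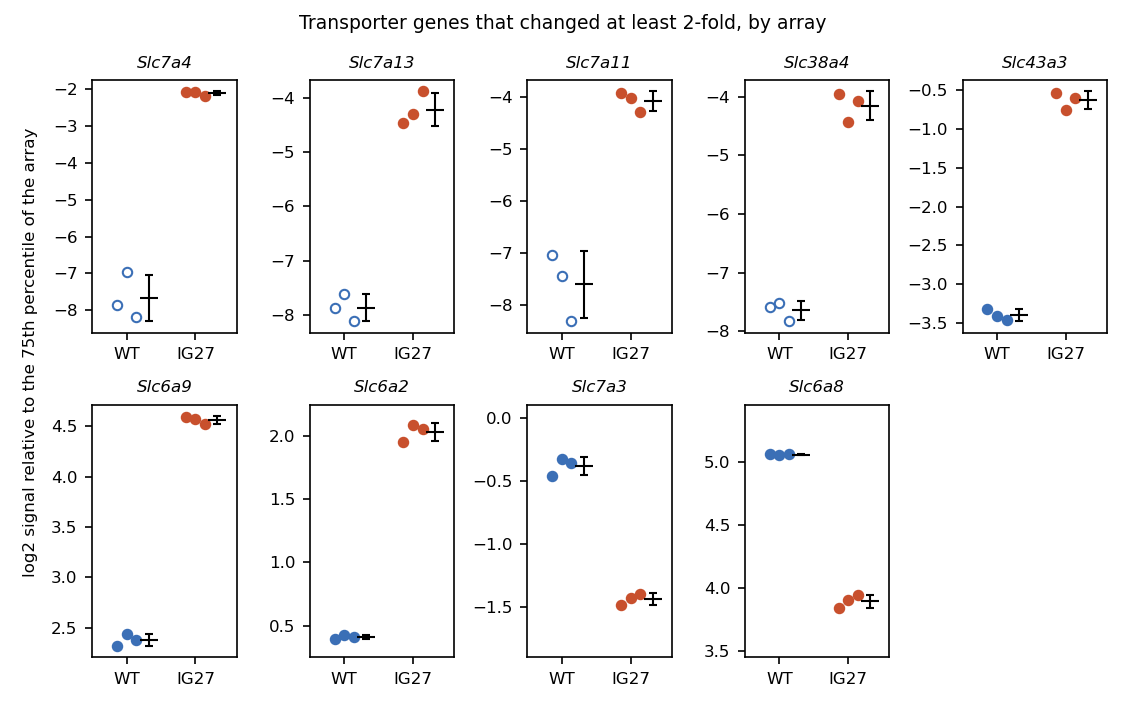
Levels on each array of the 9 transporter genes that were called with a change of at least 2-fold, as log2 signal relative to the 75th percentile, with the mean and SD of 3 arrays beside the points. Open points mark WT groups with no array well above background (Slc7a4, Slc7a13, Slc7a11 and Slc38a4), for which the plotted gap is not a measured fold. In all 9 panels the WT and IG27 points are apart, with 7 genes up and Slc7a3 and Slc6a8 down.

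Spread between arrays was small beside these differences. The median SD over the 33 genes was 0.11 in WT and 0.07 in IG27 cells, beside 0.08 in both groups over all genes. Probes of 1 gene were a larger source of doubt. Several tested probes were at hand for 11 transporter genes. Their signs differed in 6 of these genes, and *Slc3a2* was the 1 gene with a called rise by one probe and a called fall by another.

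The position of the genes moved with several of the falls. Tested genes of chromosome 8 had a median log2 fold change of -0.67 (571 of 769 lower), those of chromosome 9 a median of -0.64 (578 of 813 lower) and those of chromosome X a median of -0.59 (325 of 513 lower). Of the 12 lower transporter genes, 5 lie on these chromosomes (*Slc6a8* and *Slc7a3* on X, *Slc7a6* and *Slc38a7* on 8, *Slc36a4* on 9), as do 11 of the 33 tested. Over all genes, 1474 of the 5955 lower genes and 2095 of the 14898 tested lie there. *Slc7a6* stood at -0.22, *Slc38a7* at 0.05 and *Slc36a4* at 0.23 relative to the median of their chromosomes, whereas *Slc6a8* and *Slc7a3* lay below the X median by 0.57 and 0.46. *Slc6a2* rose on chromosome 8, at 2.29 above its median. All 10 higher genes lay above the median of their chromosome, and 9 of the 12 lower genes lay below it. As these genes were picked by their direction, that split was largely set in advance and is no separate result. The part of chromosome-wide shifts in single genes was not tested.

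Because *Slc7a11* is a known target of ATF4, the factor that mediates the amino acid response, its promoter was read for the core of the element that ATF4 and C/EBP factors bind, TGATGNAA, on both strands. Promoter windows (250 bases before to 50 after a start, RefSeq sequences on GRCm38.p6) were given for 23 of the 33 genes. The core occurs in 3.97% of all 32851 windows, or in 1219 of the 27025 genes with a window. Among the tested transporter genes it was found in *Slc7a11* (higher, and at background in WT cells) and *Slc7a7* (lower). *Slc38a2*, which many cells induce when amino acids run short, was lower. Its window did not hold the core, but bases beyond the window were not read, so that a core elsewhere in the gene would be missed. The last 100 bases before the *Slc7a11* start hold it in both orientations, 66 and 47 bases before the start. They are shown with cores in capitals, 5′ to 3′ on the minus strand (chr3:50443614-50443713).
Slc7a11: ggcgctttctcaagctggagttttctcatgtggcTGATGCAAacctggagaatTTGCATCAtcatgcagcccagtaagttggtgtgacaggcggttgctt
The same core, here as TTGCATCA, stands in promoters of other amino acid response genes, both higher and lower in IG27 cells. Shown with 12 bases on each side are 4 of the higher genes, *Chac1* (chr2:119351037-119351068, plus strand), *Nupr1* (chr7:126625561-126625592, minus), *Atf3* (chr1:191183424-191183455, minus) and *Vldlr* (chr19:27216808-27216839, plus).
Chac1: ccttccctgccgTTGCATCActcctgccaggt
Nupr1: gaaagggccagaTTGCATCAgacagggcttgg
Atf3: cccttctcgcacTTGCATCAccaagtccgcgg
Vldlr: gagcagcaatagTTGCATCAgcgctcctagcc
In *Slc7a7*, whose level was lower, the match lies 141 bases before a start, on the minus strand (chr14:54418066-54418097), and a further match spans that start.
Slc7a7: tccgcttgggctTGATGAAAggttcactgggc
A match is a run of letters and was not tested as a binding site. A pair of further motifs was searched on both strands. TGACNNNGC, the core of the antioxidant response element, occurs in 12.4% of all windows, or in 3781 of 27025 genes. Of the 23 transporter genes, 6 held it (*Slc43a1*, *Slc6a9*, *Slc7a1*, *Slc7a6*, *Slc36a1* and *Slc38a2*). CACGTG, the E-box, occurs in 7.15% of all windows, or in 2187 of 27025 genes, and 4 of the 23 held it (*Slc43a1*, *Slc7a14*, *Slc38a7* and *Slc36a1*). Neither occurred in the *Slc7a11* window, and in *Slc36a1* an E-box and an antioxidant core share bases.

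The amino acid response list had more higher than lower genes. Of 39 tested genes on that list, 24 were higher, 6 were lower and 9 were not called (76.9% called), beside 30.5% higher, 40.0% lower and 70.5% called among all tested genes, with a median log2 fold change of 0.31 beside -0.07 over all tested genes. Over the 18 alternatives run, 20 to 25 were higher and 3 to 7 lower. Of the higher genes, *Stc2* and *Fgf21* passed the filter through IG27 cells alone, so that they had to differ. With only probes well above background on every fully read array, 22 were higher and 6 lower of 37, with a median of 0.31. Under that filter 3953 of all 13545 genes were higher and 5628 lower. The largest fitted rises were those of *Stc2*, a secreted glycoprotein (at least 18.8-fold), and *Fgf21*, a stress hormone (at least 13.2-fold), both at background in WT cells and so without a measured fold, and of *Nupr1*, a stress-induced nuclear protein (log2 fold change 4.49). The bounds of *Stc2* and *Fgf21* hold for the software's own background correction. *Cth*, cystathionine gamma-lyase, which makes cysteine, was measured in both lines and rose by 4.28 on the log2 scale, so that its order against *Stc2* and *Fgf21* is not known. *Asns*, asparagine synthetase, rose by 0.80 ± 0.09 on the log2 scale (SE). *Atf4* itself was called higher by 0.38 ± 0.13 (SE, limma adjusted p = 0.0345), but the call was lost without WT replicate 2 or 3 or without any 1 of the IG27 replicates (limma adjusted p 0.0563 to 0.109). The largest falls were small, -0.51 for *Aars*, an alanyl-tRNA synthetase, -0.50 for *Cebpb*, a C/EBP factor, and -0.40 for *Eif2ak4* (GCN2), the kinase that senses uncharged tRNA. Promoter windows were given for 36 genes of the list, and TGATGNAA was found in 13 of them, of which 10 were higher, 2 were lower (*Aars* and *Gars*) and 1 was not tested. The list was drawn up from known targets of this response, so that the letters are no independent finding.

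Amino acid carriers of other families gave 10 higher and 6 lower of 22 tested genes, with a median of 0.20, beside the shares over all genes of 30.5% higher and 40.0% lower. Over the alternatives 6 to 12 were higher and 4 to 7 lower. Of the higher genes, *Slc1a1*, *Slc1a3*, *Slc1a5* and *Slc16a10* passed the filter through IG27 cells alone, so that they had to differ. With only probes well above background on every fully read array, 6 were higher and 6 lower of 17, with a median of 0.10. *Slc1a3* (GLAST), the glutamate carrier of glia, was at background in WT cells and at least 20.6-fold higher in IG27 cells. *Slc16a10*, a carrier of aromatic amino acids, and *Slc1a5* (ASCT2), a glutamine carrier, were also at background in WT cells and at least 3.16-fold and 5.64-fold higher. Bounds for these carriers hold for the software's own background correction, and their normexp values are not given here. *Slc25a12*, the mitochondrial aspartate-glutamate carrier, fell by 1.34 on the log2 scale, *Slc1a2* (GLT-1), the glutamate carrier of mature astrocytes, by 1.03 and *Sfxn1*, a mitochondrial serine carrier, by 0.90.

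Of the genes through which mTORC1 senses amino acids, 12 were higher and 11 lower of 35 tested, with a median of 0.00. Their called share, 65.7%, was near the 70.5% over all genes. *Rragd*, a Rag GTPase (2.89), *Kptn*, a KICSTOR subunit (0.87), and *Rheb*, the GTPase that activates mTORC1 (0.79), had the largest rises. *Rragb*, another Rag GTPase (-2.37), *Nprl2*, a GATOR1 subunit (-1.03), and *Castor2*, a relative of the arginine sensor Castor1 (-0.73), had the largest falls. *Rragb* lies on X and *Nprl2* on chromosome 9, where the medians are given above.

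**Figure D4:**
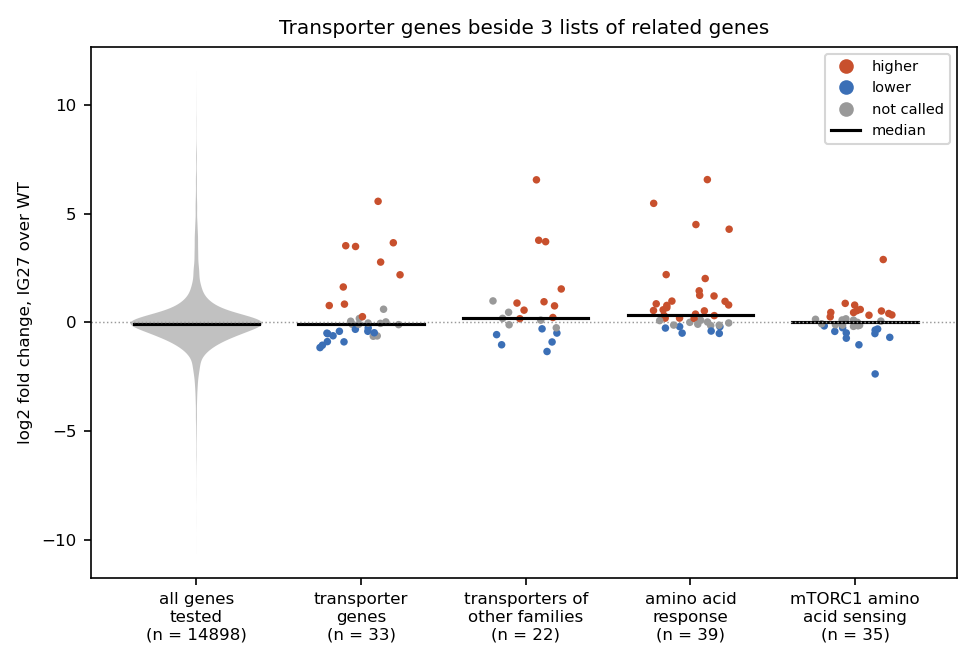
Log2 fold changes of IG27 over WT cells for all 14898 tested genes (grey density), the 33 transporter genes and 3 lists of related genes, each point a gene coloured by its call, with the median as a black line. The medians are -0.07, -0.09, 0.20, 0.31 and 0.00 from left to right, and the points high above the medians include genes at background in WT cells.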

How the data were processed

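RNA was hybridised to 1-colour Agilent mouse arrays on 1 slide, 1 array per dish. Per the file headers, the authors' scanner software was Feature Extraction 10.7.3.1 (the submitters' processing notes name version 9.1), and the deposited intensity is its processed signal, already background-corrected. A deposited value table gives those intensity values per probe. The scanner file of IG27 replicate 2 was read for 285 complete spots of 62976, so that array's values came from the table, without background or outlier flags (255 of 255 probes compared were equal). In that table the columns of WT replicates 2 and 3 are exchanged relative to the scanner files (56305 of 56305 probes equal within a relative difference of 1e-04), and the labels of the scanner files were followed.

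Control spots and spots with an outlier flag were left out, spots of a probe were averaged, and log2 values were centred on the 75th percentile of each array. Per array, 33294 to 34633 probes were well above background on the fully read arrays (75th percentile signal 987 to 1134), and the number of arrays limits the precision. Probes were named through RefSeq accessions (GRCm38.p6 gene table), and 32994 of 56605 matched. Probes well above background on every fully read array of at least 1 group were kept, with the brightest probe for each gene. The fit used limma 3.58.1 in R 4.3.3 on all arrays without covariates, following the moderated test of the study's methods, and was tested on simulated data. Bounds set the bright group's mean against, on each array of the dim group, the lowest value well above background or the probe's value there, whichever was higher.

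Values on every array are given for genes called without overlap and with a log2 change of at least 1 or a bound of at least 2-fold, and for the heteromer chains, *Slc7a1*, *Slc38a1*, *Slc38a2*, *Slc38a9* and *Slc36a1*. Other values by array, *Slc7a6os*, probe pairs, *Cth* and the promoter motifs were chosen after values were seen. From each list the 3 largest rises and falls are named, with *Atf4*, *Slc1a5* and *Asns*. Of 60 genes by the symbol rule, 1 is not reported here. The members and lists were chosen with earlier results of these data known. Replicate numbers did not pair the samples, since correlations of same-numbered deviations were 0.01, 0.04 and 0.08. Alternatives covered the arrays used, the source of values, normalization, background, filters, probes, variance, blocks, left-out replicates, the threshold and chromosome medians.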

Additional observations from a re-analysis of the deposited data

How the results depend on the processing

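The counts of higher and lower transporter genes stayed within 1.5 times of 10 and 12 under all alternatives except that, with only probes well above background on every fully read array, 6 of 27 genes were higher, because the 4 genes at background in WT cells leave the test. Leaving out 1 array at a time gave 10 higher each time and 11 to 12 lower transporter genes, and 4258 to 4372 higher and 5541 to 5806 lower genes in all. The labels number replicates 1 to 3 in each group, and a fit with the replicate number as a block called 12 transporter genes higher and 11 lower (all genes 4476 and 5833). IG27 arrays and WT replicate 2 lay in a slide row apart from the other WT arrays, and the row as a block, which sets IG27 against WT replicate 2 alone, gave 10 and 10. Under the 18 alternatives other than chromosome centring, where a value could be had, 18 of 22 called genes kept call and direction, and 7 of 11 genes that were not called gained no call, though the sign of some changed. *Slc36a4* lost its call in 10 of them (adjusted p 0.0546 to 0.109) and *Slc7a7* in 1 (0.0688). Where probes of a gene were averaged, *Slc43a1* lost its call too (-0.0091, limma adjusted p = 0.935). A call was gained by *Slc38a6* in 4 alternatives, *Slc6a20b* in 3, *Slc7a2* in 1 and *Slc38a1* in 1 (0.15, quantile normalization). Directions reversed for *Slc43a1* with normexp background correction (0.17) and without WT replicate 3 (0.27), where another probe was the brightest (-0.35 to 0.27 over the left-out arrays), and, where probes of a gene were averaged, for *Slc38a1* (-0.20, then called lower) and *Slc3a2* (-0.0032). Centred on the chromosome median, *Slc36a4* came to 0.23, *Slc38a7* to 0.0513 and *Slc43a1* to 0.0173. When dim probes were kept, the median over all genes shifted by 0.18, to 0.12. Genes at background in WT cells have only bounds, and the cause of the other changes was not tested.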
